A study of Sus scrofa with 22 samples.

Results

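SH2D6 and 6 other genes of intestinal tuft cells, namely DCLK1, TRPM5, POU2F3, GFI1B, AVIL and SH2D7, were followed across 22 RNA-seq libraries of jejunal mucosa from Ossabaw pigs, 1 library per pig. They were picked by symbol as known tuft cell genes around SH2D6, whose difference between the diet groups was already known from these data. All 7 of 7 were present among the 24358 genes of the count files, and all 7 were also among the 13626 genes with enough reads to be tested. None of the 7 was at 0 in any library.

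The WD_S group (n = 7) ate a Western pattern diet, which the sample labels call atherogenic, with the cholesterol-lowering drug atorvastatin. The HHD_S group (n = 8) ate a heart healthy pattern with atorvastatin, and the HHD group (n = 7) ate the heart healthy pattern with no drug. Every group was fed for 6 months on a diet with 38% of energy as fat, and fish oil, in capsules of 1000 mg, went to the heart healthy groups. The daily atorvastatin dose was 20 mg over an initial 3 months and 40 mg over the 3 months after it. The WD_S and HHD_S groups thus differ in the diet, and the HHD_S and HHD groups in the drug. The WD_S and HHD groups differ in both, so diet and drug cannot be told apart between them. The series text ties the abbreviation in the WD_S labels to Western pigs without the drug, whereas the diet label of each sample names the statin, and the sample labels were followed here. Pigs on the Western pattern without the drug were not analysed here.

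Tuft cells are rare epithelial cells that sense chemicals in the gut lumen with a signalling chain shared with taste cells. In mice, gut parasites and microbial metabolites such as succinate make them release interleukin-25, leukotrienes and acetylcholine, which act on immune cells and nerves of the mucosa. The transcription factor POU2F3 is required for tuft cells to form in mice. In whole mucosa, fewer cells of a type and less RNA per cell cannot be told apart, so each value below is the share of a gene in all counted RNA.

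Each library held 15.3 to 31.6 M counted reads. Levels are CPM, counts scaled to a common library size of 1 M reads, with factors by trimmed mean of M values (TMM), and they are compared between groups but not between genes, since no gene lengths were used. The deposited file names carry the number 3 or 4, called library sets here. The sets held 3 and 4 WD_S libraries, 5 and 3 HHD_S libraries, and 5 and 2 HHD libraries. The tissue label was checked against marker lists of other cells. Summed enterocyte markers ranged over 31300 to 58500 CPM in WD_S, 16000 to 51700 CPM in HHD_S and 23200 to 45800 CPM in HHD. Summed fibroblast and smooth muscle markers ranged over 567 to 1930 CPM in WD_S, 395 to 1780 CPM in HHD_S and 435 to 1830 CPM in HHD.

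SH2D6 encodes a protein with an SH2 domain, a fold that binds phosphorylated tyrosines, and its cellular role is little known. The gene (ENSSSCG00000008240) lies on chromosome 3 from 59319980 to 59327058 in Sscrofa11.1. SH2D6 had a lowest, median and highest level of 6.11, 8.59 and 9.21 CPM in WD_S, of 4.23, 9.18 and 12.6 CPM in HHD_S, and of 4.74, 5.7 and 8.03 CPM in HHD. Its mean ± SD was 8.08 ± 1.24 CPM over the 7 WD_S pigs, 8.84 ± 2.67 CPM over the 8 HHD_S pigs and 6.13 ± 1.31 CPM over the 7 HHD pigs. The ranges overlapped in each pair of groups. In HHD_S, 6 of 8 libraries lay between 8.86 and 12.6 CPM, above every HHD library, while HHD_S 6 and HHD_S 7 had 4.23 and 5.88 CPM. All 7 of 7 WD_S libraries were above the HHD median. The fitted log2 fold change of SH2D6 was 0.54 for HHD_S over HHD (SE 0.184), 0.44 for WD_S over HHD (SE 0.195) and -0.10 for WD_S over HHD_S (SE 0.186). These differences led to its choice and are given as a description, with no p-value. It had 162 reads per library on average (89 to 260), and counting error alone gives a coefficient of variation of 7.85%, against 27.9% measured over the 22 libraries.

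TRPM5 is the calcium-activated cation channel that depolarises taste and tuft cells (ENSSSCG00000039644, chromosome 2, 1646597 to 1664935). TRPM5 had a lowest, median and highest level of 3.23, 4.68 and 6.28 CPM in WD_S, of 1.79, 3.7 and 5.09 CPM in HHD_S, and of 1.78, 3.15 and 4.09 CPM in HHD. The groups overlapped, with 4 of 7 WD_S libraries above every HHD library and 7 of 7 above the HHD median. The log2 fold change of TRPM5 was 0.58 for WD_S over HHD (SE 0.226), 0.30 for WD_S over HHD_S (SE 0.215) and 0.27 for HHD_S over HHD (SE 0.217). The means ran in the order WD_S, HHD_S, HHD, at 4.45 ± 1.05, 3.63 ± 1.16 and 3.01 ± 0.77 CPM (SD), and neighbouring means lay within 1 SD of each other.

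**Figure D1:**
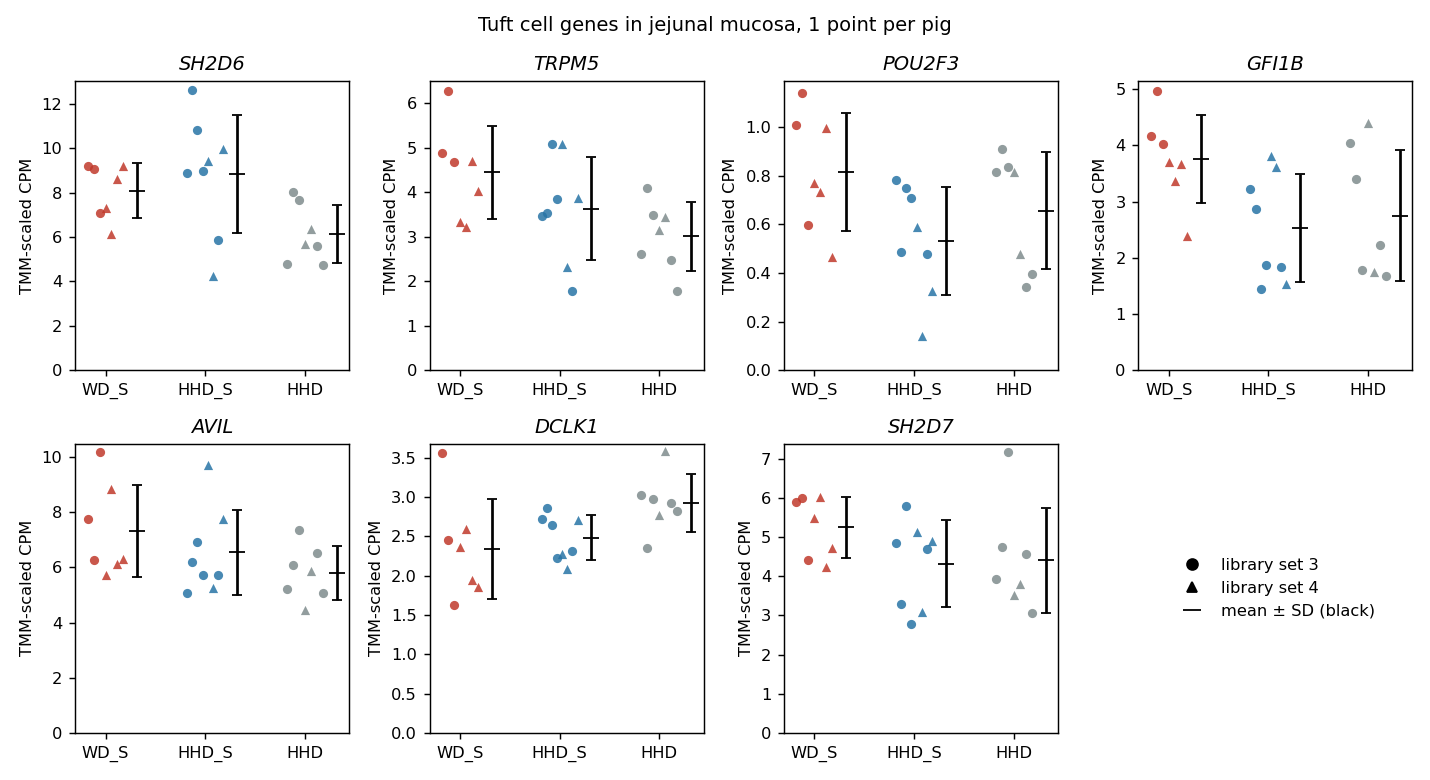
Levels of the 7 tuft cell genes in each of 22 jejunal mucosa libraries, as TMM-scaled CPM, by group (WD_S, HHD_S, HHD from left to right), with the group mean and SD and a symbol for library set 3 or 4. SH2D6 has 6 of 8 HHD_S libraries above every HHD library.

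POU2F3, the transcription factor that sets tuft cell identity (ENSSSCG00000028237, chromosome 9, 47376852 to 47458265), had few reads, 14 per library on average (3 to 25). Counting error alone gives it a coefficient of variation of 26.8%, against 38.2% measured. POU2F3 had a lowest, median and highest level of 0.464, 0.771 and 1.14 CPM in WD_S, of 0.142, 0.538 and 0.784 CPM in HHD_S, and of 0.341, 0.815 and 0.909 CPM in HHD. The groups overlapped, with 3 of 7 WD_S libraries above every library of both other groups and 0 of 8 HHD_S libraries above the HHD median. Its log2 fold change was 0.71 for WD_S over HHD_S (SE 0.291), 0.43 for WD_S over HHD (SE 0.296) and -0.28 for HHD_S over HHD (SE 0.287).

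GFI1B is a zinc finger repressor known from red cell and platelet precursors and also found in tuft cells (ENSSSCG00000005737, chromosome 1, 272701386 to 272715551). GFI1B had a lowest, median and highest level of 2.39, 3.71 and 4.97 CPM in WD_S, of 1.45, 2.37 and 3.81 CPM in HHD_S, and of 1.68, 2.22 and 4.4 CPM in HHD. All 7 of 7 WD_S libraries were above the medians of both other groups, while the ranges overlapped. In HHD_S, 4 libraries lay between 1.45 and 1.88 CPM and 4 between 2.86 and 3.81 CPM. In HHD, 4 lay between 1.68 and 2.22 CPM and 3 between 3.41 and 4.4 CPM. The values are parted here at the largest gap of each group, and whether they form separate sets was not tested. POU2F3 in HHD parted likewise, with 3 libraries between 0.341 and 0.48 CPM and 4 between 0.815 and 0.909 CPM. The log2 fold change of GFI1B was 0.57 for WD_S over HHD_S (SE 0.258), 0.44 for WD_S over HHD (SE 0.269) and -0.13 for HHD_S over HHD (SE 0.261).

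AVIL encodes advillin, an actin-binding protein of the villin family (ENSSSCG00000029571, chromosome 5, 23087946 to 23110602). AVIL had a lowest, median and highest level of 5.73, 6.3 and 10.2 CPM in WD_S, of 5.07, 5.97 and 9.71 CPM in HHD_S, and of 4.45, 5.89 and 7.37 CPM in HHD. The ranges overlapped throughout and the medians lay close together. Its log2 fold change was 0.34 for WD_S over HHD (SE 0.17), 0.17 for HHD_S over HHD (SE 0.162) and 0.16 for WD_S over HHD_S (SE 0.16).

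DCLK1, a kinase that binds microtubules and is a widely used tuft cell marker in mice, lies on chromosome 11 from 11815258 to 12159085 (ENSSSCG00000033919). DCLK1 had a lowest, median and highest level of 1.63, 2.36 and 3.56 CPM in WD_S, of 2.09, 2.48 and 2.86 CPM in HHD_S, and of 2.35, 2.93 and 3.58 CPM in HHD. It averaged 2.34 ± 0.64, 2.48 ± 0.286 and 2.92 ± 0.367 CPM in WD_S, HHD_S and HHD (SD), so its highest mean was in HHD. The ranges overlapped, and 0 of 8 HHD_S libraries and 1 of 7 WD_S libraries were above the HHD median. Its log2 fold change was -0.30 for WD_S over HHD (SE 0.16), -0.23 for HHD_S over HHD (SE 0.151) and -0.06 for WD_S over HHD_S (SE 0.155).

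SH2D7 is a second SH2 domain gene of tuft cells (ENSSSCG00000001764, chromosome 7, 47812996 to 47824926). Its span overlaps that of CIB2, and reads in the overlap cannot be told apart unless strand was counted, which is not given in the sources used here. SH2D7 had a lowest, median and highest level of 4.24, 5.49 and 6.01 CPM in WD_S, of 2.79, 4.77 and 5.79 CPM in HHD_S, and of 3.06, 3.92 and 7.16 CPM in HHD. All 7 of 7 WD_S libraries were above the HHD median, yet the single highest library was HHD 3. The log2 fold change of SH2D7 was 0.30 for WD_S over HHD_S (SE 0.184), 0.29 for WD_S over HHD (SE 0.194) and -0.01 for HHD_S over HHD (SE 0.184).

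Side by side, 5 of 7 tuft cell genes had a positive fold change for WD_S over HHD_S, 6 of 7 for WD_S over HHD and 3 of 7 for HHD_S over HHD. Over all genes tested, 47.1%, 49.0% and 52.6% were positive in the same comparisons. The median log2 fold change of the 7 genes was 0.30, 0.43 and -0.01, beside -0.01, 0 and 0.01 over all genes. The comparisons share libraries, so these counts do not stand apart from each other, and they rest on the contrasts that were known when the genes were chosen.

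The edgeR quasi-likelihood test with Benjamini-Hochberg adjustment over all 13626 genes called 0 of 7 for WD_S over HHD_S, where 0% of all genes were called. It called 0 of 7 for HHD_S over HHD, where 0% were called, and 0 of 7 for WD_S over HHD, where 0.00734% were called. At an unadjusted p under 0.05 the counts were 2 of 7, 1 of 7 and 2 of 7, beside 2.92%, 1.81% and 3.41% of all genes. DESeq2 called 0 of 7 in each of these comparisons, beside 0.0294%, 0.00734% and 0.0147% of all genes. Nothing is read from these counts, because the genes were chosen with the contrasts known.

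**Figure D2:**
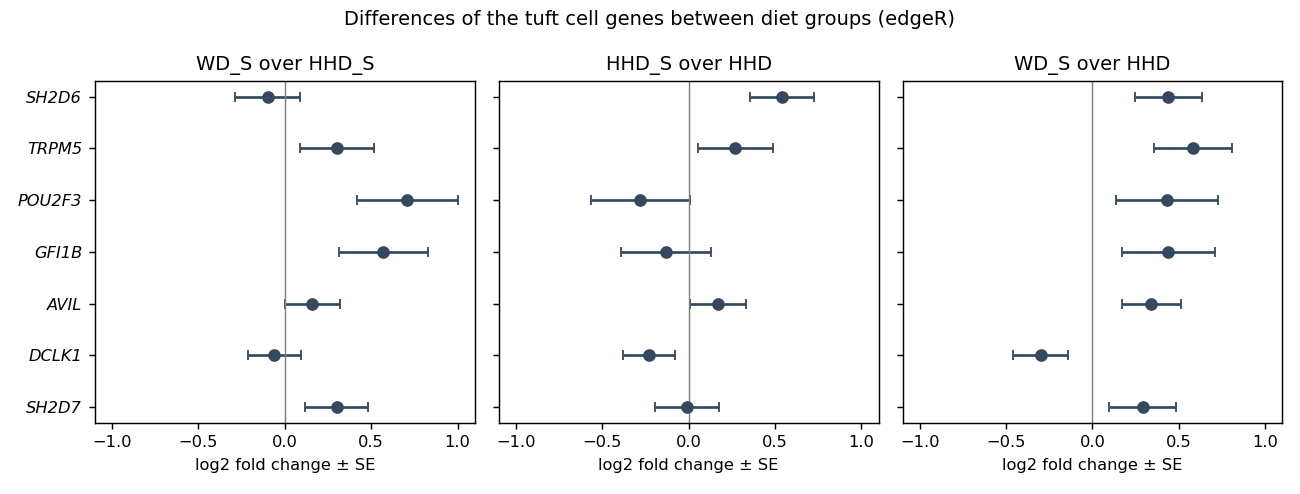
Fitted log2 fold changes of the 7 tuft cell genes with bars of 1 SE, for WD_S over HHD_S, HHD_S over HHD and WD_S over HHD. SH2D6 has its largest value for HHD_S over HHD (0.54), POU2F3 and GFI1B theirs for WD_S over HHD_S (0.71 and 0.57), and DCLK1 is negative in each.

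Within the library sets the values of several genes differed from those over all libraries, to unlike degrees. GFI1B for WD_S over HHD_S had a log2 fold change of 0.97 in set 3 alone and 0.14 in set 4 alone, and for WD_S over HHD of 0.73 and 0.11. TRPM5 for WD_S over HHD had 0.87 in set 3 alone and 0.21 in set 4 alone, and for WD_S over HHD_S 0.59 and 0.02. POU2F3 for WD_S over HHD_S had 0.53 in set 3 alone and 1.06 in set 4 alone. DCLK1 for WD_S over HHD had -0.13 in set 3 alone and -0.53 in set 4 alone. SH2D6 for HHD_S over HHD had 0.60 in set 3 alone and 0.39 in set 4 alone. SH2D7 for WD_S over HHD had 0.22 in set 3 alone and 0.48 in set 4 alone. AVIL changed sign, with 0.46 in set 3 alone and -0.17 in set 4 alone for WD_S over HHD_S, and -0.04 and 0.55 for HHD_S over HHD. The difference between sets was not tested, and set 4 held only 2 HHD libraries.

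The library sets played no part in choosing the genes and could be tested. Between set 4 and set 3, with the group in the fit, edgeR called 0 of 7, and 0% of all genes were called. POU2F3 had the largest difference, a log2 fold change of -0.40 (SE 0.249, edgeR adjusted p = 0.9159), and SH2D6 had -0.14 (SE 0.158, edgeR adjusted p = 0.9215). The other 5 ranged from -0.12 to 0.07, and 1 of 7 (GFI1B) was positive, beside 49.9% of all genes. At an unadjusted p under 0.05, 0 of 7 passed, beside 4.42% of all genes, and DESeq2 called 0 of 7, beside 0% of all genes.

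Variation between pigs of the same group was not used to choose the genes either. After each group's mean log2 CPM was subtracted, SH2D6 and TRPM5 moved together over the 22 libraries, with a Pearson r of 0.77 (permutation p = 0.00033, adjusted p = 0.00693 over 21 pairs). Spearman's rho was 0.77 (permutation p = 0.00012, adjusted p = 0.00252). The r was 0.84 in set 3 and 0.89 in set 4. By group it was 0.68 within WD_S, 0.76 within HHD_S and 0.86 within HHD. HHD_S 6 and HHD_S 7 were farthest from the median of SH2D6 and low in both genes, and without them r was 0.65 (adjusted p = 0.0589 by permutation), so the adjusted call rests on those 2 libraries together. With any 1 library left out the pair passed in 22 of 22 repeats, with r between 0.74 and 0.82.

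**Figure D3:**
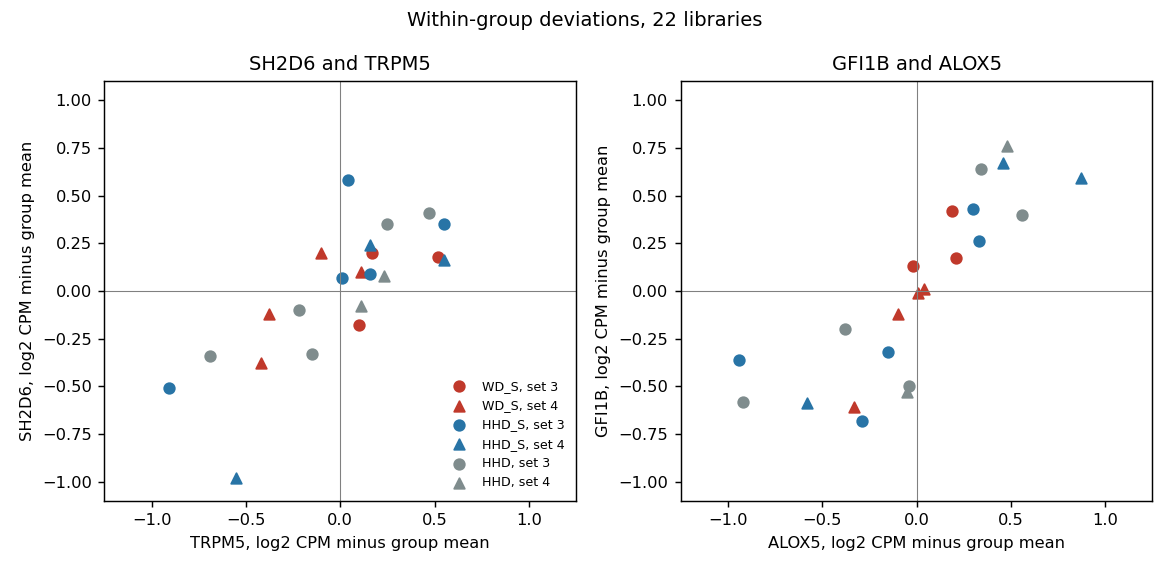
Deviations from the group mean in log2 CPM for SH2D6 against TRPM5 (left) and GFI1B against ALOX5 (right), 1 point per library (22), with colour for group and symbol for library set. Points run from lower left to upper right in both panels (r = 0.77 and r = 0.82), and 2 HHD_S libraries lie at the low end of the left panel.

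No other pair of the 7 genes passed after adjustment over the 21 pairs. POU2F3 had r = 0.56 with TRPM5 and r = 0.55 with SH2D6, and AVIL had r = 0.47 with SH2D7 (adjusted p = 0.165 for each, permutation test). Over all pairs, 16 of 21 had a positive r, with a median of 0.24 and a range from -0.17 to 0.77. The share over pairs of all genes was not computed, so nothing is read from this count. GFI1B differed in sign from most, and its r was -0.17 with SH2D6, -0.16 with AVIL, -0.15 with SH2D7 and -0.09 with DCLK1. It was 0.15 with TRPM5 and 0.23 with POU2F3.

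**Figure D4:**
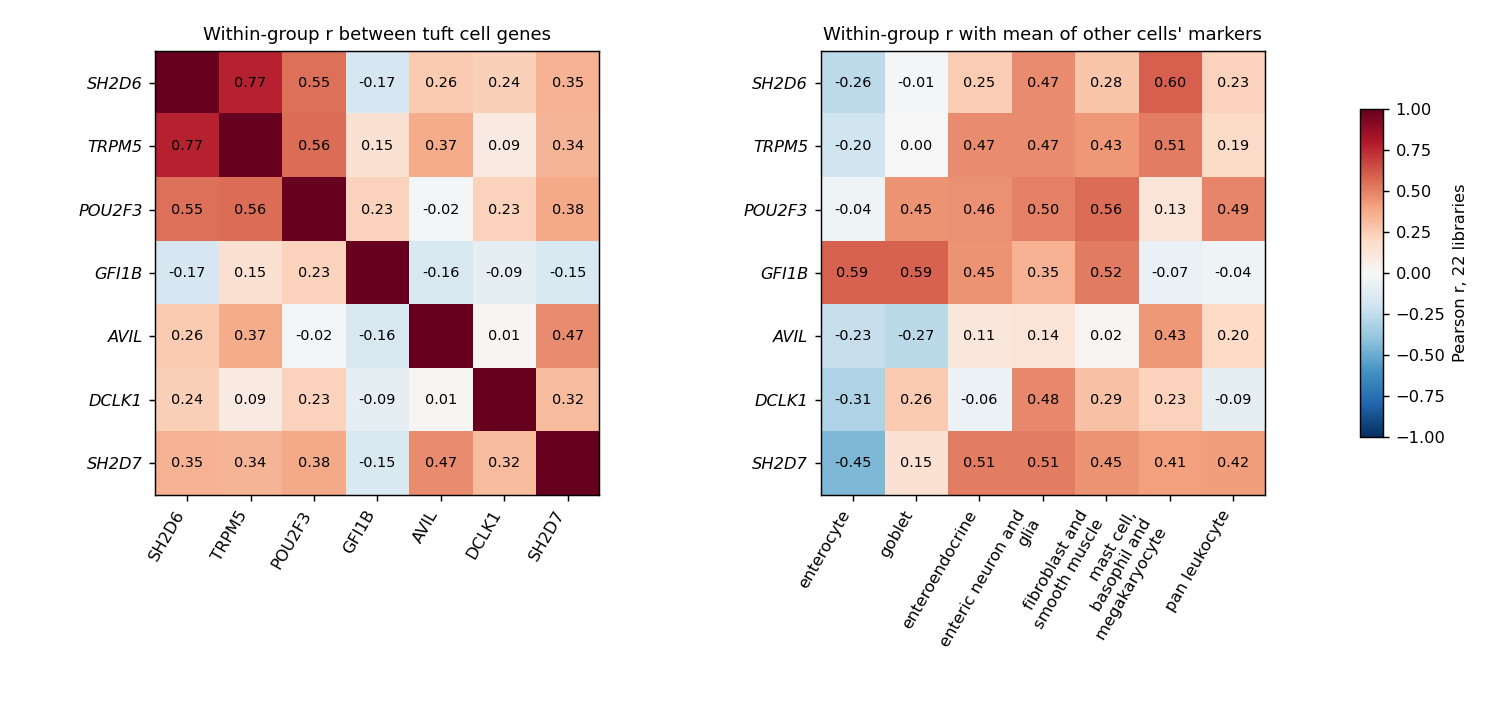
Within-group Pearson r over 22 libraries between the 7 tuft cell genes (left) and between each of them and the mean of marker lists of other cells (right). SH2D6 and TRPM5 have the highest r of the left panel (0.77), and GFI1B has its highest r of the right panel with enterocyte and goblet markers (0.59 each).

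Against marker lists of 7 other cell types, 0 of 49 relations passed after adjustment (lowest adjusted p = 0.131, permutation test). SH2D6 had its highest r, 0.60, with the mean profile of the markers of mast cells, basophils and megakaryocytes, and r was 0.32 without the 2 farthest libraries. Of single markers ranked for likeness, HDC had r = 0.30 with SH2D6, MS4A2 0.17, KIT 0.11 and ITGA2B -0.13. GATA1 and GP9, also part of that mean profile, had too little expression to be ranked, so no r is given for them. Their part in the r of 0.60 was not tested. The summed level of that list ranged over 139 to 206 CPM in WD_S, 140 to 222 CPM in HHD_S and 120 to 177 CPM in HHD, with 5 of 6 of its genes positive for HHD_S over HHD (median 0.09). ITGA2B made up most of that sum (mean 132 CPM over all libraries), so the sum mainly follows that gene and not the profile behind the r of 0.60. None of its 6 measured markers was at 0 in any library, and its part in the SH2D6 values was not tested. GFI1B, itself known from megakaryocytes, had r = -0.07 with that list and r = 0.59 with both the enterocyte and the goblet list. POU2F3 had r = 0.56 with the fibroblast and smooth muscle list, whose part in it was not tested. For HHD_S over HHD, where SH2D6 was positive, the goblet list was negative in 6 of 6 genes (median -0.41) and the fibroblast and smooth muscle list in 8 of 8 (median -0.20), while 6 of 7 enterocyte and 6 of 8 enteroendocrine markers were positive (medians 0.10 and 0.06). For WD_S over HHD_S, where 5 of 7 tuft cell genes were positive, so were 8 of 8 fibroblast and smooth muscle markers (median 0.13) and 5 of 6 goblet markers (median 0.32). Over all genes, 52.6% were positive for HHD_S over HHD and 47.1% for WD_S over HHD_S. In both comparisons edgeR called 0% of all genes after adjustment, and so no gene of these lists. The part of these lists in the tuft cell gene values was not tested.

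A wider set of 51 tuft cell genes was read from the same fit, and 39 of them were tested. edgeR called 0 of 39 in each comparison after adjustment, with 7, 1 and 3 at an unadjusted p under 0.05 for WD_S over HHD_S, HHD_S over HHD and WD_S over HHD, and DESeq2 called 0 of 39 in each. Over all genes, edgeR called 0%, 0% and 0.00734% after adjustment and 2.92%, 1.81% and 3.41% at the unadjusted threshold, and DESeq2 called 0.0294%, 0.00734% and 0.0147%. Positive fold changes were found in 26, 16 and 26 of 39, beside 47.1%, 52.6% and 49.0% of all genes, with medians of 0.14, -0.08 and 0.09, beside -0.01, 0.01 and 0 over all genes. None of the values named in the next sentences passed the edgeR test (adjusted p at least 0.9993).

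Among the enzymes and receptors of tuft cell output, ALOX5 and ALOX5AP, which start leukotriene synthesis and are also made by myeloid cells, stood at 0.63 (SE 0.227) and 0.69 (SE 0.234) on the log2 scale for WD_S over HHD_S. ALOX5AP was at -0.54 (SE 0.234) for HHD_S over HHD. HPGDS, the prostaglandin D synthase of blood-derived cells, was at 0.72 (SE 0.31) for WD_S over HHD. Of the 10 tested genes of this list, 7, 4 and 8 were positive (WD_S over HHD_S, HHD_S over HHD, WD_S over HHD), beside 47.1%, 52.6% and 49.0% of all genes.

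In the taste signalling list, 9 of 14 genes were tested, with medians of 0.01, 0.08 and 0.11 in the same order. ITPR3, a calcium release channel, had 0.22 (SE 0.126) for WD_S over HHD_S and 0.29 (SE 0.133) for WD_S over HHD. SUCNR1, the succinate receptor, had 0.89 (SE 0.673) for HHD_S over HHD and ranged over 0.095 to 4.57 CPM over all libraries. In the transcription factor list, 6 of 10 were tested, and SPIB had 0.31 (SE 0.14) and ASCL2 0.50 (SE 0.325) for WD_S over HHD_S. The ASCL2 median was yet lower in WD_S (0.88 CPM, 0.482 to 3.54) than in HHD_S (1.08 CPM, 0.608 to 1.75). ASCL2 had 10 to 65 reads per library. In the signalling and structure list, 14 of 15 were tested, and the adaptor PSTPIP2 had 0.45 (SE 0.15) for WD_S over HHD_S.

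**Figure D5:**
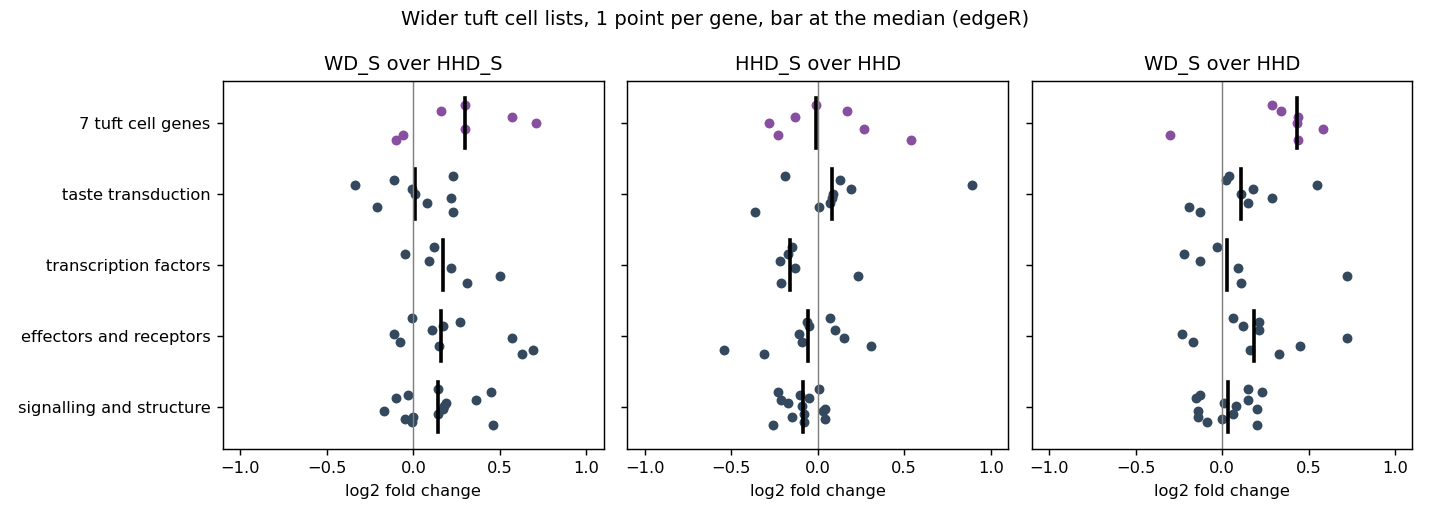
Fitted log2 fold changes of the tested genes of the 7 tuft cell genes and the 4 wider tuft cell lists, 1 point per gene with a bar at the median, for the 3 group comparisons. The 7 genes have medians of 0.30, -0.01 and 0.43, and ALOX5AP (0.69 for WD_S over HHD_S) is the highest wider tuft gene in that comparison.

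Several genes of the circuit through which tuft cells act were close to the limit of counting. IL25, the cytokine released by tuft cells, had 45 reads over all 22 libraries and was at 0 in 3. GNAT3, the taste G protein subunit gustducin, had 15 reads and was at 0 in 10 libraries, and GNG13, its partner, had 21 reads and was at 0 in 8. IL13, the type 2 cytokine that expands tuft cells in mice, had 28 reads, and IL4 had 6. In the type 2 list 7 of 12 genes were tested, and the median log2 fold changes were -0.05, -0.15 and -0.09, beside -0.01, 0.01 and 0 over all genes. edgeR found 0 of 7 past the threshold in each comparison by adjusted p (0%, 0% and 0.00734% of all genes) or by unadjusted p (2.92%, 1.81% and 3.41% of all genes), and nothing is read from that count.

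GFI1B moved with ALOX5 and ALOX5AP across pigs of a group. Of 273 relations between the 7 genes and the 39 wider tuft genes, 5 passed after adjustment over the 273 by Pearson's r and 8 by Spearman's rho. TRPM5 with GNB3 (rho = 0.74, r = 0.58), GFI1B with IL4R (rho = 0.73, r = 0.69) and SH2D6 with BMX (rho = 0.69, r = 0.62) passed by rho only. Their adjusted p by permutation was 0.0246, 0.0269 and 0.0437 for rho, and 0.113, 0.0619 and 0.216 for r. SH2D6 with BMX had r = 0.81 in set 3 and 0.29 in set 4. A positive r was found in 188 of 273 (median 0.14). The share over all genes was not computed for such relations, so nothing is read from these counts. All genes were not ranked by their r with GFI1B either. GFI1B and ALOX5 had r = 0.82 (permutation p = 5e-05, adjusted p = 0.0123) and rho = 0.88 (permutation p = 2e-05, adjusted p = 0.00546). The r was 0.77 in set 3 and 0.89 in set 4, was 0.82 without the 2 libraries farthest from the median, and passed in 22 of 22 repeats with 1 library left out. GFI1B and ALOX5AP had r = 0.77 (permutation p = 0.00022, adjusted p = 0.015) and rho = 0.80 (permutation p = 0.00015, adjusted p = 0.0205), with r = 0.69 in set 3, 0.88 in set 4 and 0.75 without the 2 farthest libraries. That call was lost without WD_S 7 (adjusted p = 0.0715, permutation test). With LTC4S, the leukotriene C synthase, GFI1B had r = 0.50 (adjusted p = 0.233, permutation test), and with PLA2G4A, the phospholipase that frees arachidonic acid, r = -0.33 (adjusted p = 0.494, permutation test).

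ALOX5 averaged 26.9 ± 3.27 CPM in WD_S, 17.1 ± 6.89 CPM in HHD_S and 20.9 ± 6.87 CPM in HHD (SD), the same order of groups as ALOX5AP at 10.5 ± 1.61, 6.39 ± 2.52 and 9.06 ± 3.03 CPM. GFI1B averaged 3.76 ± 0.789, 2.53 ± 0.962 and 2.75 ± 1.17 CPM in the same groups. The pan leukocyte markers had r = -0.04 with GFI1B. Its r was 0.59 with both the enterocyte and the goblet markers and 0.52 with the fibroblast and smooth muscle markers. None of these relations passed after adjustment (adjusted p at least 0.131, permutation test).

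TRPM5 and BMX, a tyrosine kinase of the wider tuft list, had r = 0.79 (permutation p = 9e-05, adjusted p = 0.0123) and rho = 0.71 (permutation p = 0.00069, adjusted p = 0.0269), with r = 0.94 in set 3 and 0.45 in set 4. Without the 2 farthest libraries r was 0.58, and without HHD_S 7 the adjusted p was 0.0526 by permutation. Which cells of the mucosa held the BMX RNA was not tested. BCL2L14, a BCL2 family gene, is in the wider tuft list. It had r = -0.76 with the mean profile of the tuft cell genes other than SH2D6, rank 11767 of 11780 named genes. POU2F3, which is part of that mean, and BCL2L14 ran against each other, with r = -0.70 (permutation p = 0.00022, adjusted p = 0.015) and rho = -0.70 (permutation p = 0.0005, adjusted p = 0.0269). Their r was -0.83 in set 3, -0.67 in set 4 and -0.73 without the 2 farthest libraries, and the call was lost without WD_S 2, WD_S 7 or HHD_S 1 (adjusted p up to 0.0715, permutation test) and with total counts (r = -0.60, adjusted p = 0.0602, permutation test). SH2D7 and SOX9, a crypt transcription factor, had r = 0.65 (permutation p = 0.00066, adjusted p = 0.036) and rho = 0.66 (permutation p = 0.00054, adjusted p = 0.0269). That relation had r = 0.73 in set 3, 0.29 in set 4 and 0.52 without the 2 farthest libraries, and passed in only 7 of 22 repeats with 1 library left out (adjusted p up to 0.143, permutation test). It was also lost with library set means removed (adjusted p = 0.104, permutation test).

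Among 11780 named genes with enough expression, those whose profile was most like SH2D6 within groups over the 22 libraries were GSPT2 and CFL2 (r = 0.83 each), SLC9B2 (0.79), KIAA1328 and CLCF1 (0.75 each), ST3GAL4 (0.74), RNF17 (0.73), GCNT1 (0.72), TMEM47 (0.71), and ZNF227, SRPX2 and TMEM100 (0.70 each). Over all ranked genes the r with SH2D6 had a median of -0.01, and the central 95% lay between -0.48 and 0.53. These are the top of a ranking and carry no p-value.

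For the mean profile of the other 6 tuft cell genes the most alike were GRAMD1A (0.88), GATA2 (0.87), LGI4 (0.85), KCTD15 (0.84), ADGRL1 (0.83), P2RX1, TPM2, TTC9, NCS1 and L1CAM (0.82 each), and SRPX2 and CDH24 (0.81 each). The median r of all ranked genes with that mean was -0.04, and the central 95% lay between -0.61 and 0.68. The 8 fibroblast and smooth muscle markers had a median r of 0.68 with that mean (0.62 to 0.74) and of 0.29 with SH2D6 (0.13 to 0.37). The part of that list in these profiles was not tested.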

How the data were processed

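Jejunal mucosa of 22 Ossabaw pigs was sequenced by the submitters as 150-base single reads from TruSeq version 2 libraries of RNA with a quality indicator above 8, per the labels' protocols. The authors deposited 1 file per library with unique exon read counts per gene, made with a CLC workbench on Sus scrofa 11.1, per the labels and the submitters' processing notes; the version and settings of that tool were not given in the sources used here. Groups come from the diet labels, and replicate numbers follow accession order. The labels do not say whether pigs of a group shared a litter or pen.

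Of 24358 genes, 17332 are named in the files and 1050 more by a gene table. The counts were TMM-scaled and fitted with edgeR 4.0.16 (R 4.3.3; quasi-likelihood, robust, minimum count 10, Benjamini-Hochberg over 13626 genes, calls at adjusted p under 0.05), with group and library set as terms and 18 residual degrees of freedom. The biological coefficient of variation was 25.9%. DESeq2 1.42.0 was an alternative. Correlations used log2 CPM (prior count 2) and 2-sided permutation tests with 100000 shuffles within groups (Python 3.11.15, SciPy 1.17.1). The scripts were tested on simulated data. No pair of the 231 library pairs agreed within counting noise (smallest reduced chi-square 24.7).

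The genes, lists and comparisons were chosen with earlier results of these data known. Named from each list were genes past the adjusted p in a comparison and otherwise the 2 with the smallest p, plus the 12 genes with the highest r. A gene that this rule names is not reported here. The correlations of the 7 genes with the wider tuft list and with other cells' markers were added after seeing the data. Other settings tried were total counts, no library set term, each set alone, filters on low counts, another prior count and each library left out.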

Additional observations from a re-analysis of the deposited data

Results flagged for a closer look

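SH2D7 had 7.16 CPM in HHD 3, far above the other HHD libraries, which lay between 3.06 and 4.74 CPM. Its gap to the nearest library of the group, relative to the range of the group, was past the 95% critical value of Dixon's test. Such a test was made in 21 combinations of gene and group, 1 of which passed, and chance gives about 1 in 20.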

How the results depend on the processing

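No paired analysis was made, because each library came from a different pig and the labels give no pairing of pigs between groups. The count of genes called over the whole table was 0 for WD_S over HHD_S, against 4 with DESeq2 and 2 with no library set term, and 0 to 2 with 1 library left out. For HHD_S over HHD it was 0, against 1 with DESeq2 and 0 with any 1 library left out. For WD_S over HHD it was 1 (ABCG1), against 2 with DESeq2, 0 with total counts and 0 in set 3 or set 4 alone, and 0 to 1 with 1 library left out. Of the pairs of tuft cell genes, 1 passed, against 2 with library set means removed, 5 with total counts, 0 in set 3 or set 4 alone, 0 without the 2 farthest libraries, and 1 to 2 with 1 library left out. The cause of these shifts was not tested.

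The log2 fold change of SH2D6 stayed between 0.39 and 0.63 for HHD_S over HHD and between 0.37 and 0.50 for WD_S over HHD in 31 alternatives. AVIL for WD_S over HHD_S was 0.46 in set 3 alone and -0.17 in set 4 alone, and for HHD_S over HHD -0.04 and 0.55. GFI1B ranged over 0.14 to 0.97 for WD_S over HHD_S and 0.11 to 0.73 for WD_S over HHD, and TRPM5 over 0.21 to 0.87 for WD_S over HHD, with both ends in single sets. Near 0, GFI1B for HHD_S over HHD was 0.05 without HHD 4. POU2F3 for HHD_S over HHD was -0.84 in set 4 alone and had no value under the filter of 1 CPM in 7 libraries. Depth limits POU2F3 most, with 3 to 25 reads per library.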
